A study of Sus scrofa and Rattus norvegicus with 8 samples.

Results

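Matrix proteoglycans and glycoproteins of the fat connective tissue were examined as a set of 10 pig genes: the small leucine-rich proteoglycan genes DCN, BGN, LUM, FMOD and OGN, the glycoprotein genes FN1, SPARC, FBN1 and POSTN, and LOX, which encodes a cross-linking enzyme. The genes were taken by symbol without a filter on their level, though earlier results of these data were known. Each of the 10 symbols belonged to a single Ensembl ID of the pig table, which lists 25880 IDs and has symbols for 14857 of them. All 10 were above 0 in every library and none was lost to a filter. The values came from rRNA-depleted, stranded RNA-seq of the upper layer of backfat, a subcutaneous depot, of 6 adult female Bama pigs, each 2 years old and with no treatment or altered gene given in the labels (1 library per pig). The series also holds 2 pools of rat inguinal fat, whose IDs carry no symbols and which were not used here. With 1 group of pigs there was no contrast between conditions, so levels, spreads and the order of the genes are described without a test.

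The extracellular matrix of fat is made mainly by fibroblasts and progenitor cells and surrounds every adipocyte. Small leucine-rich proteoglycans have a protein core of leucine-rich repeats that binds collagen fibrils and limits their width. Decorin (DCN) and biglycan (BGN) are close relatives of class I and carry chondroitin or dermatan sulfate chains, lumican (LUM) and fibromodulin (FMOD) are of class II and carry keratan sulfate, and osteoglycin (OGN) is of class III. Fibronectin (FN1) links collagens to integrins, SPARC is a calcium-binding protein that escorts collagen, fibrillin-1 (FBN1) builds the microfibrils on which elastin is laid down, periostin (POSTN) is a matricellular protein, and lysyl oxidase (LOX) cross-links collagen and elastin.

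The class I and class II genes are shown here as pairs because the members of each pair differ in base composition, and their values are compared below. Each line gives the first 120 bases of the longest coding exon segment of the gene's longest RefSeq transcript on Sscrofa11.1, 5′ to 3′ on the coding strand, with G and C in capitals. These stretches lie at chrX:124291045-124291164 (plus strand, 64.2% G and C), chr5:91700453-91700572 (plus strand, 38.3%), chr9:64070636-64070755 (minus strand, 60.0%) and chr5:91751488-91751607 (plus strand, 51.7%).
BGN: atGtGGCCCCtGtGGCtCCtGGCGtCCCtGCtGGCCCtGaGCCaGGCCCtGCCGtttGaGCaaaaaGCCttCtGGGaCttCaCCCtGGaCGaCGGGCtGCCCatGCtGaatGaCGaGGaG
DCN: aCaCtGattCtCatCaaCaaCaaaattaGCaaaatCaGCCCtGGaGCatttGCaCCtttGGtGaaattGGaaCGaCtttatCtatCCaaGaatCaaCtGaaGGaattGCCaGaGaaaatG
FMOD: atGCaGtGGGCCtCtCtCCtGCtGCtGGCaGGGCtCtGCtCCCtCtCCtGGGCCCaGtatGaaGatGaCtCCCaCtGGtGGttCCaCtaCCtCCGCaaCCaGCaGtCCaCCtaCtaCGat
LUM: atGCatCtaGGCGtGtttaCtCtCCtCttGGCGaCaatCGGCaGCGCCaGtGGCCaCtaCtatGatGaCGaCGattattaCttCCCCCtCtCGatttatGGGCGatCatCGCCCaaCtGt
Over the whole longest transcript the GC content was 64.1% for BGN against 43.6% for DCN, and 52.7% for FMOD against 40.1% for LUM. BGN and FMOD are thus the GC-rich members of these pairs. The others had 34.8% (OGN), 40.5% (POSTN), 51.1% (FBN1), 51.6% (FN1), 52.7% (LOX) and 54.1% (SPARC).

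The genes lie on 9 chromosomes. DCN (ENSSSCG00000000915) and LUM (ENSSSCG00000000916) are neighbours on chromosome 5, at chr5:91678601-91713925 (10 exons) and chr5:91748871-91756381 (3 exons), both on the plus strand, followed by KERA and EPYC of the same family. OGN (ENSSSCG00000034607, chr3:42116521-42135940, minus strand, 7 exons) lies beside OMD, ASPN and ECM2, and FMOD (ENSSSCG00000015270, chr9:64062995-64073853, minus strand, 3 exons) near PRELP and OPTC. BGN (ENSSSCG00000012766) is at chrX:124282048-124295450 on the plus strand with 8 exons. The glycoprotein genes are FN1 (ENSSSCG00000016174, chr15:117658158-117737145, minus strand, 50 exons), SPARC (ENSSSCG00000017082, chr16:71368164-71380972, plus strand, 10 exons), FBN1 (ENSSSCG00000004658, chr1:123102011-123359649, plus strand, 65 exons) and POSTN (ENSSSCG00000009361, chr11:13225183-13258973, minus strand, 22 exons). LOX (ENSSSCG00000014232) is at chr2:125595115-125607026 on the minus strand with 7 exons.

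TPM values are transcript abundances corrected for transcript length. They sum to the same total in each library, so levels can be set side by side between genes, but they keep no read numbers and the depth is unknown. The libraries were not alike. Named nuclear genes held 24.1% to 26.3% of all TPM in replicates 1, 2, 3 and 6, but 3.34% in replicate 4 and 4.73% in replicate 5, and the 13 mitochondrially encoded protein genes held 10.8% to 21.2% against 0.209% and 0.298%. Each library was therefore also rescaled so that its named nuclear genes sum to 1000000, and these values are called rescaled TPM. The factor was 3.80 to 4.15 in the other 4 libraries, 29.9 in replicate 4 and 21.1 in replicate 5. Replicates 4 and 5 are set apart below as libraries and are not a group of the study.

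As deposited, the 10 genes together had 6572, 4370, 5102, 406, 694 and 5737 TPM in replicates 1 to 6, a mean of 3813 ± 2631 (SD, n = 6). On this scale every one of the 10 genes was lower in replicates 4 and 5 than in all other libraries, as were 99.1% of the 8866 named nuclear genes with a mean of at least 10 rescaled TPM, so the low sums do not mark these genes out. Rescaled, the sums were 26302, 18130, 19493, 12143, 14662 and 21774, a mean of 18750 ± 5049 (SD, n = 6), which was 1.88% ± 0.505 (SD, n = 6) of the named nuclear transcripts. Replicates 4 and 5 had the lowest sums on both scales. The sum over replicates 1, 2, 3 and 6 was 21424 ± 3582 rescaled TPM (SD, n = 4).

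**Figure D1:**
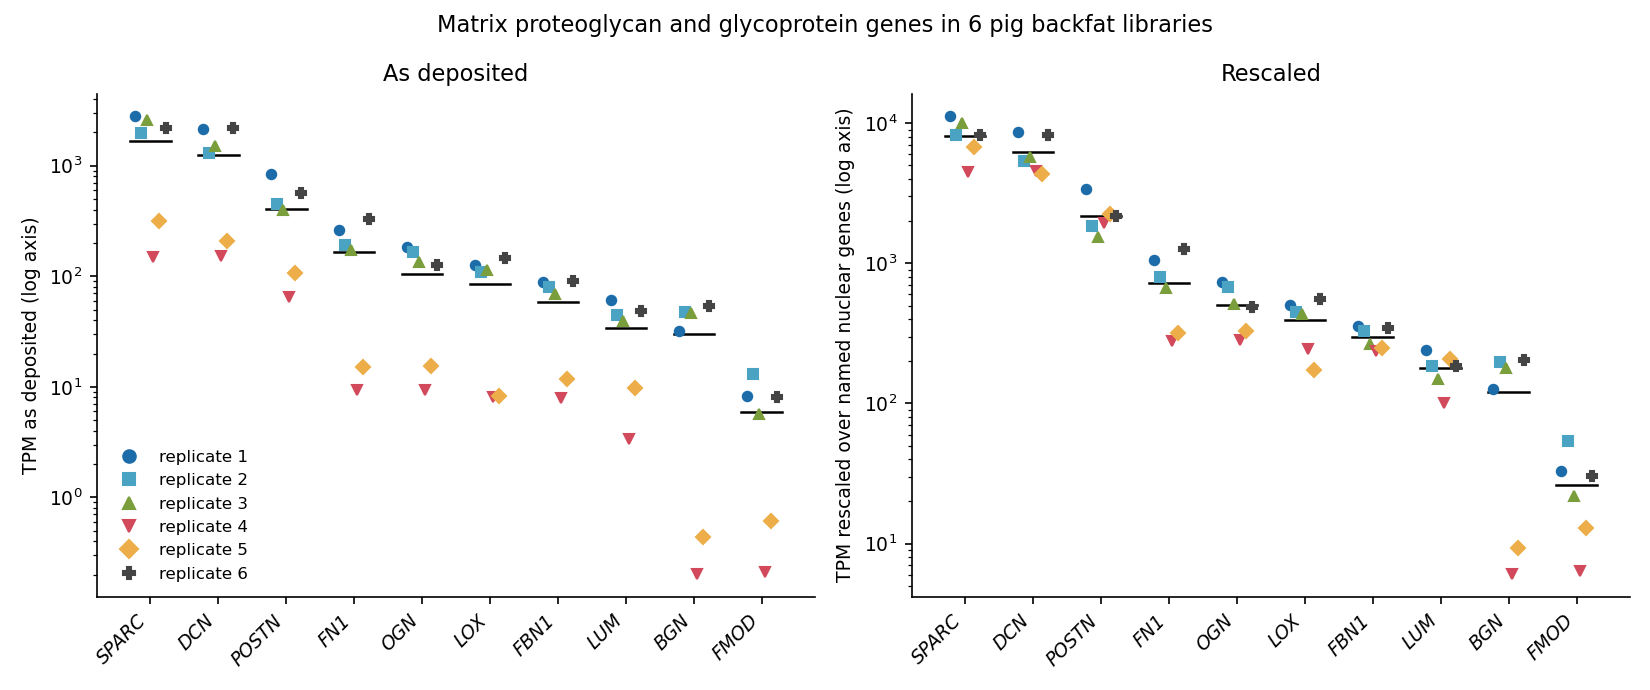
Level of each of the 10 genes in each of the 6 pig libraries, as deposited (left) and rescaled over named nuclear genes (right), both on log axes, with 1 symbol per library and a bar at the mean of the 6. Replicates 4 and 5 lie below the other 4 for every gene on the left, while on the right LUM and POSTN overlap and BGN keeps the widest gap.

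The order of the genes by mean was the same on both scales: SPARC, DCN, POSTN, FN1, OGN, LOX, FBN1, LUM, BGN and FMOD. Among the named nuclear genes SPARC had rank 7 by mean and DCN rank 13, whereas FMOD had rank 5941. Neighbours in this order were compared by their log2 ratio within each library, which no scaling factor changes. DCN over POSTN (1.49 ± 0.39, SD, n = 6), POSTN over FN1 (1.75 ± 0.87) and FBN1 over LUM (0.77 ± 0.33) had the same sign in 6 of 6 libraries. SPARC over DCN was 0.39 ± 0.34 (SD, n = 6) and SPARC was the higher in 4 of 6, since they were nearly level in replicates 4 and 6. FN1, OGN, LOX and FBN1 followed each other without differing beyond 1 SD, at 0.41 ± 0.52 for FN1 over OGN, 0.38 ± 0.39 for OGN over LOX and 0.32 ± 0.47 for LOX over FBN1. LUM over BGN was 1.49 ± 2.19 (SD, n = 6), with BGN the higher in replicates 2, 3 and 6, and BGN over FMOD 1.51 ± 1.45, with FMOD slightly the higher in replicates 4 and 5.

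Most of the sum came from the same 3 genes in every library. SPARC held 43.3% ± 5.27 (SD, n = 6) of it, DCN 33.0% ± 3.91 and POSTN 12.0% ± 3.26, together 85.1% to 91.1% in every library. The small leucine-rich proteoglycans made up 37.3% ± 3.50 (SD, n = 6), with 40.6% in replicate 4 and 33.6% in replicate 5 against 34.1% to 42.2% in the others, so this share did not set replicates 4 and 5 apart. FN1 held 2.29% and 2.19% in replicates 4 and 5 against 3.40% to 5.79%, while POSTN held 16.1% and 15.4% against 7.85% to 12.9%. BGN held 0.0502% and 0.0630% against 0.486% to 1.09%, and FMOD 0.0521% and 0.0882% against 0.112% to 0.297%. The shares of these 4 genes did not overlap, whereas those of the other members did. How many of all genes show such a gap was not computed on this measure. A gap was common in rescaled TPM, where replicates 4 and 5 were both below the others for 48.6% of genes with a mean of at least 10 and both above for 12.3%.

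**Figure D2:**
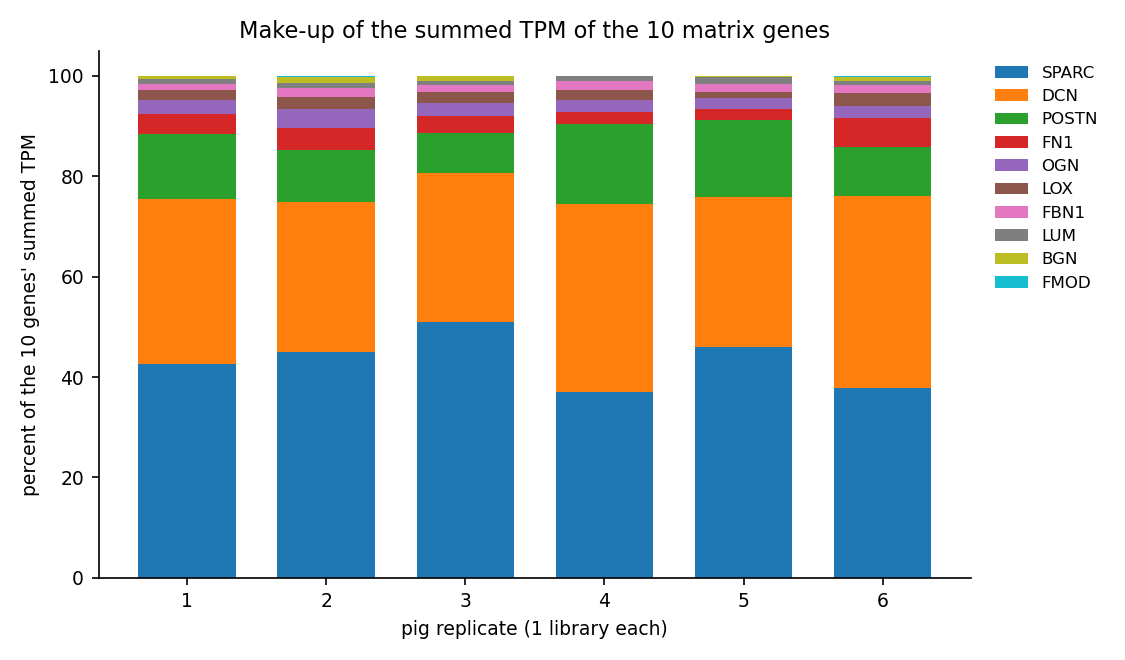
Percent of the 10 genes' summed TPM held by each gene (stacked, from SPARC at the bottom to FMOD at the top) in each of the 6 pig libraries. SPARC, DCN and POSTN hold 85.1% to 91.1% of every bar, and the BGN band is hardly visible in replicates 4 and 5.

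Among the small leucine-rich proteoglycans, DCN was the most abundant by a wide margin. Its TPM in replicates 1 to 6 were 2170, 1304, 1514, 152, 207 and 2184, which rescaled to 8685, 5409, 5784, 4540, 4365 and 8290 (mean 6179 ± 1869, SD, n = 6). The lowest were replicates 4 and 5, and replicates 1 and 6 stood well above the rest. The other 4 libraries had 1.58 times the mean of replicates 4 and 5.

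BGN, the class I relative of DCN, had 31.9, 47.7, 46.6, 0.204, 0.437 and 53.4 TPM in replicates 1 to 6. Rescaled it had 128, 198, 178, 6.10, 9.24 and 203 (mean 120 ± 91.2, SD, n = 6). No value of replicates 4 and 5 came near the other 4 libraries, whose mean was 23.0 times theirs when rescaled and 140.1 times as deposited. The rank of BGN was 880 to 1548 in the other 4 libraries, 8924 in replicate 4 and 7913 in replicate 5. Within a library BGN was 1.47% to 3.66% of DCN in the other 4 and 0.134% and 0.212% in replicates 4 and 5. This ratio does not depend on the scaling of a library.

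LUM, next to DCN on the chromosome, was far below it at 2.22% to 4.76% of the DCN level. Its rescaled TPM were 242, 185, 150, 101, 208 and 184 in replicates 1 to 6 (mean 178 ± 48.6, SD, n = 6). Replicate 4 was the lowest and replicate 5 the second highest, so these libraries did not move together and overlapped the other 4. FMOD, the other class II gene, was the scarcest of the 10 at 32.7, 53.9, 21.9, 6.33, 12.9 and 30.6 rescaled TPM (mean 26.4 ± 16.8, SD, n = 6). Here replicates 4 and 5 were the lowest and replicate 2 the highest. FMOD was 6.29% and 6.22% of LUM in replicates 4 and 5 against 13.6% to 29.2% in the other 4.

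Replicate 2, where FMOD was highest, also had the highest summed level of the 7 tendon and cartilage markers (MKX, COMP and SCX the highest in mean), at 68.8 rescaled TPM against 22.5 to 32.9 in replicates 1, 3 and 6 and 8.72 and 18.5 in replicates 4 and 5. COMP, a cartilage and tendon matrix protein, was at 20.7 rescaled TPM there and at most 6.26 elsewhere, and MKX was also highest there at 34.4 against at most 27.8. SCX, a tendon transcription factor, was at 1.61 in replicate 2 and highest in replicate 5 at 11.4, and MATN1 of the same list was at 0 in all 6. A highest sum in replicate 2 was not particular to this list. The endothelial (1407), mural cell (1189), lymphocyte (149) and skeletal muscle (15.3) marker sums were also highest there. Those of the adipocyte, fibroblast and progenitor, macrophage, skin epithelium, liver and kidney markers were highest in other libraries. The part of tendon-like tissue in the FMOD level was not tested.

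OGN was the next most abundant of the 5 after DCN, at 733, 683, 512, 282, 328 and 484 rescaled TPM in replicates 1 to 6 (mean 504 ± 182, SD, n = 6). Again replicates 4 and 5 were the lowest, and the other 4 libraries had 1.98 times their mean.

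The neighbours of these genes in the genome did not share their levels. KERA (keratocan), beside LUM, had 112.7 ± 54.6 rescaled TPM (SD, n = 6), and EPYC (epiphycan), beside KERA, had 4.10 ± 4.48. In the OGN cluster, ECM2 had 664 ± 170.5, OMD (osteomodulin) 94.3 ± 26.0 and ASPN (asporin) 72.1 ± 29.8, so ECM2 was above OGN in mean while OMD and ASPN were below it in each library. PRELP, of the FMOD locus, had 142 ± 109 rescaled TPM and OPTC (opticin) was listed at 0 in 4 of 6 libraries. PRELP had 182, 251, 145, 11.3, 12.0 and 252 in replicates 1 to 6. PRELP thus set replicates 4 and 5 apart nearly as far as BGN did, and FMOD less so.

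**Figure D3:**
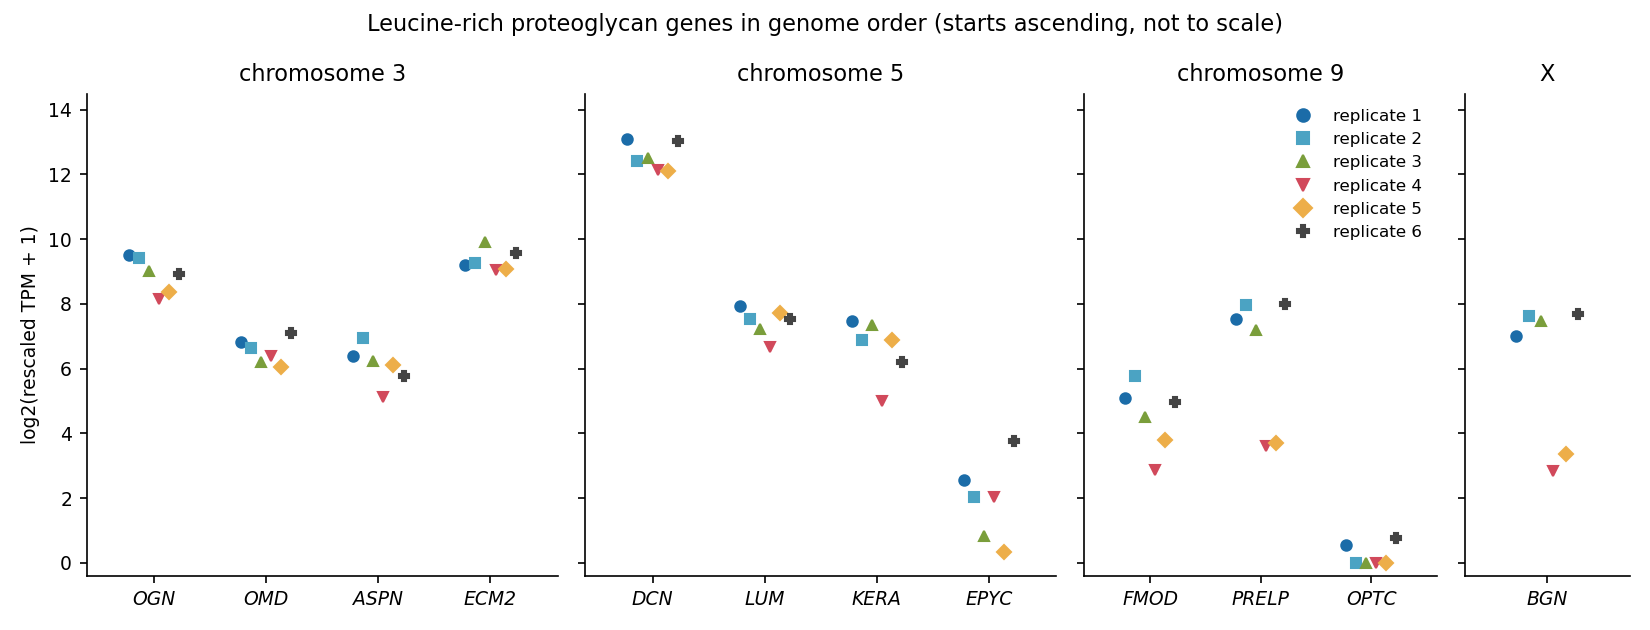
Rescaled TPM, as log2(value + 1), of leucine-rich proteoglycan genes in the order of their starts on each chromosome, with 1 symbol per library. Replicates 4 and 5 sit close to the other 4 libraries in ECM2, OMD, DCN and LUM, lower in OGN (a difference of -0.96), and far below them in PRELP and BGN.

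SPARC, the most abundant of the 10, had 2795, 1970, 2604, 150, 319 and 2175 TPM in replicates 1 to 6, and 11186, 8174, 9950, 4500, 6746 and 8255 rescaled (mean 8135 ± 2356, SD, n = 6). The lowest levels were those of replicates 4 and 5, and the other 4 libraries had 1.67 times their mean. Its rank among named nuclear genes was 4 to 8 in the other 4 libraries, 23 in replicate 4 and 16 in replicate 5.

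POSTN was the exception among the abundant genes. Rescaled it had 3383, 1853, 1531, 1949, 2252 and 2161 TPM in replicates 1 to 6 (mean 2188 ± 638, SD, n = 6). Replicate 1 was the highest, and replicates 4 and 5 lay inside the range of the others. Its rank stayed between 23 and 54 in all 6 libraries.

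FN1 had 1049, 797, 664, 278, 321 and 1261 rescaled TPM in replicates 1 to 6 (mean 728 ± 391, SD, n = 6). The mean of the other 4 libraries was 3.15 times that of replicates 4 and 5, the widest gap after BGN and FMOD. The POSTN level was 699.9% and 702.5% of that of FN1 in replicates 4 and 5 and 171% to 323% in the other 4, with no overlap.

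FBN1 varied least, at 357, 329, 264, 238, 247 and 346 rescaled TPM (mean 297 ± 53.1, SD, n = 6). Its levels in replicates 4 and 5 were the lowest but close to replicate 3. LOX had 507, 450, 439, 243, 174 and 560 (mean 395 ± 153, SD, n = 6), and the other 4 libraries had 2.34 times the mean of replicates 4 and 5.

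In rescaled TPM, replicates 4 and 5 were both below all other libraries for 8 of the 10 genes (all but LUM and POSTN). Of the 8866 named nuclear genes at a mean of at least 10 rescaled TPM, 4307 (48.6%) were both below in this way, so the pattern is common in these libraries. None of the 10 was both above, against 1092 genes (12.3%). On log2(rescaled TPM + 1), the mean of replicates 4 and 5 minus the mean of the other 4 had a median of -0.86 over the 10 genes and -0.41 over the 8866. Relative to this shift of all genes, BGN was at -3.95, FMOD at -1.34, FN1 at -1.20, LOX at -0.82, OGN at -0.55, SPARC at -0.34 and DCN at -0.22, and these 7 stayed below it under each of the 6 scalings tried. FBN1 (0.01), LUM (0.04) and POSTN (0.39) were at or above it, but below it as deposited and under quantile normalization, where POSTN was at -0.40 and -0.32. BGN had a lower difference than all but 0.023% of the genes. BGN, FMOD, FN1 and LOX were both below the other 4 libraries under each of the 6 scalings, whereas DCN, SPARC, OGN and FBN1 were not.

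In bulk tissue, fewer cells of a type and less RNA per cell cannot be told apart. Adipocyte markers (FABP4, ADIPOQ, LPL and 5 others, all above 0) summed to 28326 and 36957 rescaled TPM in replicates 4 and 5 and 20273 to 35505 in the other 4, so the tissue label was borne out in every library. FABP4 was the highest of them, at 20000 and 28926 against 10370 to 24010. Of the 8 markers, 2 were both below. These were LIPE at 577 and 423 against 1046 to 1519, and PLIN1 at 1351 and 1247 against 1506 to 2137. CIDEC was both above, at 892 and 856 against 391 to 647, and the rest overlapped the other libraries. The 7 fibroblast and progenitor markers found, led by CLEC3B and MFAP5, summed to 963 and 1045 against 872 to 1242, and PDGFRA, a receptor that marks these cells, had 143 and 133 against 126 to 185. The other 4 of the list were both below, with PDGFRB at 62.3 and 60.2 against 113 to 140.01, CD34 at 30.7 and 33.1 against 77.5 to 97.3, PI16 at 25.9 and 19.96 against 59.8 to 125.1 and DPP4 at 6.89 and 7.48 against 7.81 to 32.2. The median difference of these 7 markers was -0.80. The 5 endothelial markers found, led by PECAM1, CDH5 and EMCN, summed to 644 and 780 against 1096 to 1407, and the 7 mural cell markers, led by TAGLN, ACTA2 and RGS5, to 580 and 670 against 753 to 1189. Both below were 4 of the 5 endothelial (80.0%) and 4 of the 7 mural markers (57.1%), beside 48.6% of all genes. TAGLN, the highest mural marker, overlapped at 347 and 269 against 238 to 294. The 7 macrophage markers (MRC1, CD163 and C1QA the highest) summed to 527 and 355 against 617 to 805. Of these 7, 3 (42.9%) were both below, and MRC1, CD163 and C1QA overlapped the other libraries. The 7 lymphocyte markers (PTPRC, CD2 and CD79A the highest) summed to 68.5 and 56.1 against 76.5 to 149. Most of this was PTPRC, at 52.6 and 38.3 against 54.5 to 113, the only 1 of them with a mean of at least 10. CD79A was also lower, at 1.12 and 0.911 against 8.24 to 12.6, while CD2 overlapped at 7.67 and 8.58 against 6.97 to 11.2. The 4 skeletal muscle markers found (MYBPC1, ACTA1 and CKM the highest) summed to at most 15.3 in any library. The 7 kidney markers (LRP2, UMOD and CUBN the highest) summed to at most 29.0 and the 5 skin epithelium markers found (DSP, KRT10 and TP63 the highest) to at most 38.9. The 7 liver markers found (ALB, APOA1 and FGB the highest) summed to 1305 and 1603 in replicates 4 and 5 and to 204 to 1195 in the other 4, with ALB (albumin) at 772 and 1091 against 47.6 to 794. The part of any of these cell types in the levels of the 10 genes was not tested.

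The difference also moved with transcript composition and length. Of the 8866 genes, 8177 (92.2%) had a RefSeq transcript. In 10 bins of equal gene number, the median difference went from -0.22 in the bin of lowest GC content to -0.62 in the highest, and from 0.10 in the bin of shortest transcripts to -0.82 in the longest. Over genes, none of which is an independent replicate, the difference and GC content had Pearson's r = -0.16. In both proteoglycan pairs among the 10 the GC-rich gene had the lower difference, with BGN at -4.36 against -0.63 for DCN, and FMOD at -1.75 against -0.37 for LUM. SPARC (-0.76) and FBN1 (-0.41) with over 50% GC, and OGN (-0.96) with the least GC of the 10, did not follow that order. Nor did KERA, beside LUM, with 35.4% GC and -1.05, while PRELP, near FMOD, had 54.3% GC and -4.01. After centring each library on the genes of the same GC bin, an alternative added after the data were seen, BGN was at -3.74, FMOD at -1.14, FN1 at -1.10, OGN at -0.72 and LOX at -0.63, and DCN, SPARC and FBN1 were no longer both below. Centring by bins of transcript length in the same way left BGN at -4.08, FMOD at -1.29, LOX at -1.04 and FN1 at -0.70, put FBN1 at 0.51 and POSTN at 0.43, and ended the call for FBN1. Both centrings also take out the shift common to all genes. Median-centring, which uses neither GC content nor length, put BGN at -3.74, FMOD at -1.28, FN1 at -1.31, LOX at -0.94 and OGN at -0.67. It ended the calls for DCN, SPARC and FBN1 as well. The part of base composition and length in these differences was not tested beyond these values.

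**Figure D4:**
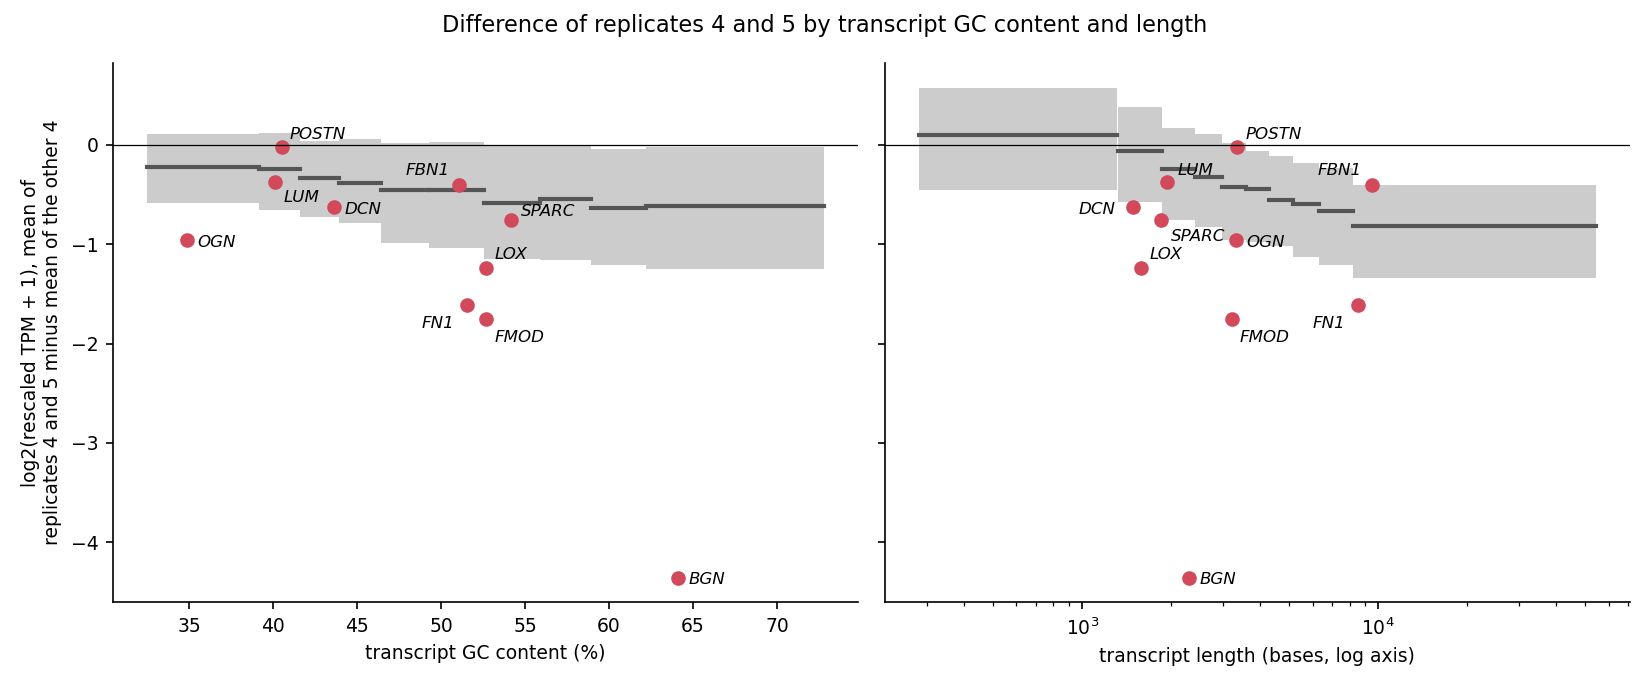
Difference of replicates 4 and 5 from the other 4 libraries, on log2(rescaled TPM + 1), against transcript GC content (left) and transcript length on a log axis (right), with red points for the 10 genes, dark bars for the median and grey boxes for the quartiles of each of 10 bins of 8177 genes. BGN, at -4.36, lies far below the box of its bin on both panels, and POSTN at the top of the 10.

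The other genes of the matrix were taken from lists that hold none of the 10. The shares given for each list are to be read beside the 48.6% of all genes and were not tested. Of 121 such genes found, 96 had a mean of at least 10 rescaled TPM, 64 of these were both below in replicates 4 and 5, and their median difference was -0.86, equal to that of the 10 genes at this precision. Of the other leucine-rich proteoglycans, 3 of 7 were both below (median -0.72), with ECM2 (664), PODN (329) and PRELP (142) the highest in mean rescaled TPM. Of the other proteoglycans, 5 of 7 were (median -0.58), with HSPG2, the basement membrane proteoglycan perlecan, at 101 and 88.7 in replicates 4 and 5 against 413 to 600, while SRGN, serglycin of blood cells, was the higher there at 462 and 376 against 219 to 279 and VCAN (versican) had a mean of 75.9.

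Of the elastic fibre and fibulin genes, which act with FBN1, 12 of 13 were both below (median -1.29). EFEMP1 (425) and LTBP4 (213), which binds latent TGF-beta, were among them, and MFAP5 (229), a microfibril protein, was the exception at a difference of 0.02. FBN1 differed less than 12 of these 13 genes. Of the matricellular and adhesive glycoproteins, 14 of 19 were both below (median -1.05). THBS1 (thrombospondin-1) and SPARCL1, a relative of SPARC, had means of 557 and 427 rescaled TPM and THBS2 had 358, and THBS1, like POSTN, was at -0.03.

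Of the cross-linking and processing enzymes, which act with LOX, 8 of 11 were both below (median -0.91), among them PCOLCE (311) and PCOLCE2 (184), enhancers of procollagen cleavage, whereas P4HA1 (111), a prolyl hydroxylase subunit, was at 0.22. Of the enzymes that build the sugar chains of DCN and BGN, 8 of 15 (53.3%) were both below (median -0.61), a share near the 48.6% of all genes, and DSE (88.3), CSGALNACT2 (69.6) and FAM20B (36.8) overlapped or were higher. Of the matrix receptors, 8 of 15 (53.3%) were as well (median -0.40), also near that share, and ITGB1 (609), the integrin beta chain that binds fibronectin, was at -0.35, SDC2 (178) at -0.05 and DDR2 (127), a collagen receptor, at -0.81.

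Collagens, the partners of the small leucine-rich proteoglycans, were split in the same libraries, with 6 of 9 both below and a median difference of -1.49. The 6 were COL1A1, COL4A2, COL5A1, COL6A1, COL6A2 and COL6A3. COL1A1 had 6180, 2414, 2058, 391, 716 and 2811 rescaled TPM in replicates 1 to 6 and COL3A1 had 12883, 6587, 7060, 4378, 11359 and 5892. COL1A1 was thus lowest in both replicates 4 and 5, while COL3A1 was lowest in replicate 4 but second highest in replicate 5. COL1A2, which joins COL1A1 in type I collagen, had a mean of 2512 rescaled TPM and, like COL3A1 and COL5A2, was not both below.

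**Figure D5:**
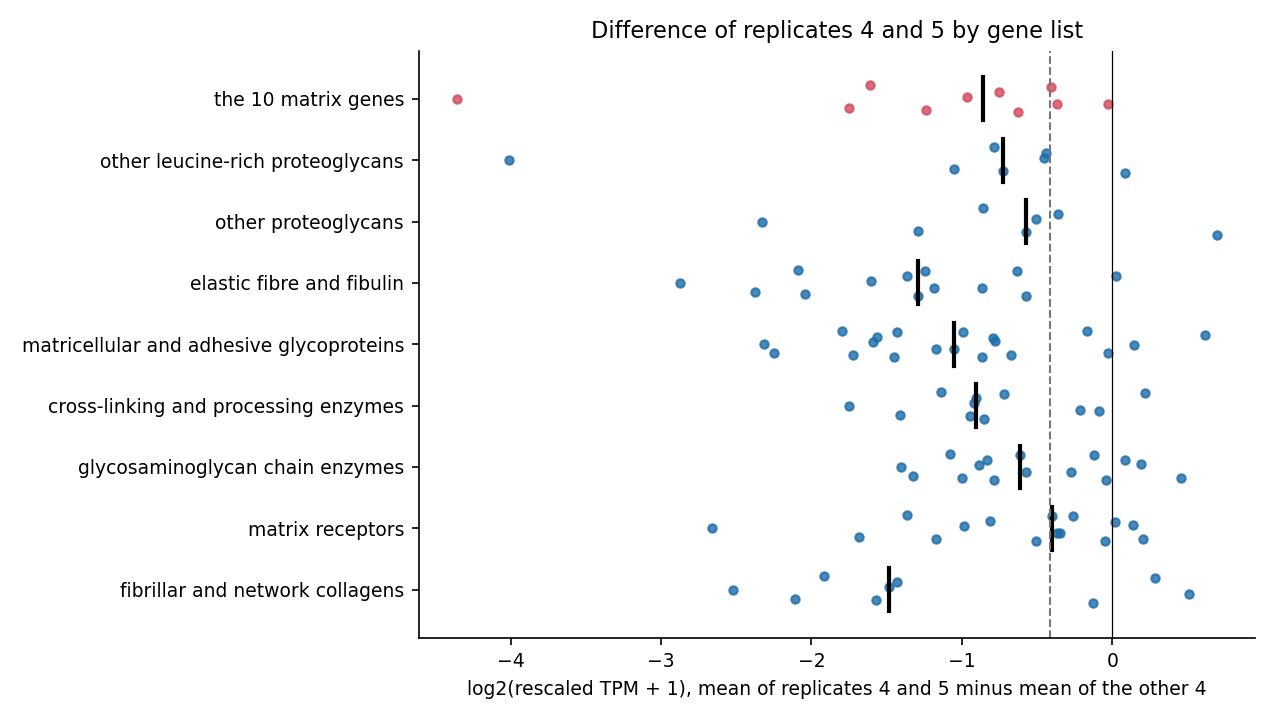
Difference of replicates 4 and 5 from the other 4 libraries, on log2(rescaled TPM + 1), for each gene with a mean of at least 10 rescaled TPM in the 10 matrix genes (red) and in 8 other matrix lists (blue), with a black bar at each list's median and a dashed line at the median of all genes (-0.41). The median of the 10 genes is -0.86 and that of the elastic fibre and fibulin list -1.29.

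The spread between the pigs was measured as the coefficient of variation (CV, SD divided by mean). Rescaled, it ran from 0.179 for FBN1 to 0.758 for BGN, with a median of 0.332 over the 10 genes beside 0.282 over the 8866. As deposited the median was 0.719 beside 0.671 over the 3693 genes that passed the same minimum on the deposited scale. Among replicates 1, 2, 3 and 6 alone the rescaled CV had a median of 0.202 (0.163 over all genes), and LOX (0.114) and FBN1 (0.128) varied least. In these libraries SPARC (0.154) and BGN (0.194) followed, and POSTN (0.363) and FMOD (0.391) varied most. Replicate 1 had the highest rescaled level of 6 of the 10 genes (DCN, LUM, OGN, SPARC, FBN1 and POSTN), replicate 6 that of BGN, FN1 and LOX, and replicate 2 that of FMOD. The lowest level was in replicate 4 for 7 genes, in replicate 5 for DCN and LOX, and in replicate 3 for POSTN.

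Genes of like pattern over the 6 libraries were ranked by the root mean square difference of log2(rescaled TPM + 1), each gene centred on its own mean. The nearest to BGN was PRELP, at 0.325, itself a leucine-rich proteoglycan, and both were set by the gap of replicates 4 and 5. For the other members the nearest were LOX to ABRAXAS1 (0.021), FBN1 to PPFIBP1 (0.034), DCN to UNKL (0.050), SPARC to TPST2 (0.060), OGN to TTYH2 (0.070), FN1 to ZNF521 (0.086), POSTN to C9orf40 (0.112), FMOD to TLR3 (0.115) and LUM to CA13 (0.121). No member was the nearest gene of another. The closest pairs among the 10 were DCN with FBN1 (0.215) and SPARC with OGN (0.254), and the best place that a fellow member took among 8865 genes was 294, that of SPARC beside LUM. The genes nearest to the mean profile of the 10 were PIP4K2B (0.070), CLN3 (0.077), RRP7A (0.085), INPPL1 (0.086) and FAT1 (0.090). With 6 libraries such likeness is a description of these levels only.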

How the data were processed

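RNA-seq of white adipose tissue from 6 pigs was used (1 library each, replicates numbered as in the labels), and 2 rat pools were left out because their IDs could not be named. The authors depleted rRNA, sequenced stranded libraries and deposited TPM per Ensembl gene ID, computed with kallisto 0.43.0 (submitters' processing notes, which also name Sscrofa11.1). The authors' TPM are fixed to a common total per library and keep no depth, so no counting error or count test was possible, and precision comes from the spread between pigs.

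Symbols were matched by ID. Rescaled TPM divide by the sum over 14844 named nuclear IDs and multiply by 1000000. Differences are on log2(rescaled TPM + 1), over genes with a mean of at least 10. Transcripts, coordinates and sequences are from NCBI RefSeq on Sscrofa11.1, matched by symbol. Rescaling, median-centring and median-ratio scaling were tested on simulated data in which few genes were lowered in replicates 4 and 5. The real libraries differ, with 48.6% of genes both below, so that test does not cover them. Python 3.11.15, pandas 2.3.3 and numpy 2.4.6 were used.

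The members, the 19 other gene lists and the tests were chosen with earlier results of these data known. Named genes are all members, the 3 highest of each other list, genome neighbours and the nearest genes by likeness. MATN1, PLIN1, LIPE, CIDEC, PDGFRB, CD34, PI16, DPP4 and the collagens below the 3 highest were named after their values were seen. Alternatives were other scalings (median-centring, quantile, median-ratio, without 49 ribosomal protein genes), filters, a pseudocount of 0.1, leaving out libraries, and centring by GC content or length.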

Additional observations from a re-analysis of the deposited data

How the results depend on the processing

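The scale decided most. The mean summed level went from 3813 TPM as deposited to 18750 rescaled and 21424 rescaled without replicates 4 and 5 together, since every library's factor was above 1, and each of the 10 single levels moved by 4.00 to 5.39 times (median 4.82). No single level moved by more than 1 SD under median-centring, quantile normalization, without replicates 4 and 5, or in any of the 60 cases of leaving out 1 library. That SD is of the 6 libraries as deposited and is itself widened by replicates 4 and 5, so it could hardly show a move. Without replicates 4 and 5, DCN went from 1255 to 1793 TPM and SPARC from 1669 to 2386. The median CV of the 10 genes, 0.719 as deposited, was 0.332 rescaled, 0.286 under median-centring, 0.370 under quantile normalization, 0.270 under median-ratio scaling, 0.195 without replicates 4 and 5 together and 0.202 when also rescaled, and leaving out 1 library gave 0.542 to 0.828. The lowest of these came without replicate 4 (0.542) and without replicate 5 (0.558). The number of genes both below in replicates 4 and 5, 8 when rescaled (48.6% of all genes), was 10 as deposited (99.1%), 8 under quantile normalization (26.8%), 8 without ribosomal protein genes (46.2%), 5 under median-centring (35.1%), 4 under median-ratio scaling (24.9%), 5 when centred by 10 bins of GC content (27.1%) and 7 by bins of length (26.2%). The 4 genes left under median-ratio scaling were BGN, FMOD, FN1 and LOX, and POSTN turned from a difference of -0.03 rescaled to 0.53. The order of the 10 genes held for 9 of 9 neighbour pairs under other summaries and without each library, except that BGN passed LUM without replicate 1 (8 of 9). The share of the small leucine-rich proteoglycans moved by less than 1 SD throughout. The nearest gene by likeness was the same for 7 of 10 genes with a pseudocount of 0.1 and for 0 of 10 without replicates 4 and 5. Median-ratio scaling of the sum and CV, rescaling without replicates 4 and 5, and the centring by GC content and length were added after the data were seen. No paired analysis was possible because the pigs form 1 group with no contrast. Depth is unknown, so values near 0, such as BGN in replicates 4 and 5, carry no counting error.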
